A study of Mus musculus with 18 samples.

Results

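Glycolysis and hypoxia response genes were followed as a set of 33 named mouse genes, taken by gene symbol. They comprised 23 genes of glucose entry, glycolysis, lactate handling and flux control, and 10 genes of oxygen sensing and its targets. All 33 were among the 17267 gene symbols of the count tables, and all 33 passed the filter on low counts. Poly(A) RNA of primary preadipocytes, the precursor cells of fat, had been sequenced from WT mice in 18 libraries, 3 in each of 6 groups. Undifferentiated cells of eWAT, the epididymal white fat, formed 4 of the groups. From mice on a control diet (CD) came cells given TGF-b1 with SB431542, which blocks the kinase of the type I TGF-b receptor, cells given TGF-b1 alone, and mock cells. From mice on a high-fat diet (HFD) came the HFD mock cells. The remaining groups, Itga5-High and Itga5-Low, had been sorted with an antibody to CD49e, the integrin alpha 5 protein, and were then induced to become adipocytes in culture. The labels give no diet for the sorted cells, and they state neither dose, duration, sex nor age for any group. Nor do they say if the replicates of a group were different animals or cultures. The p-values therefore reflect how far these libraries scatter, and that scatter may be technical. Counts of 2 libraries of a group differed with a chi-square per degree of freedom of 1.15 to 1.25, close to that of counting noise alone. Small p-values here need not hold for differences between animals.

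Glycolysis splits glucose into pyruvate in the cytosol, and lactate dehydrogenase passes pyruvate on to lactate, which leaves the cell with protons through monocarboxylate carriers. When oxygen is scarce, the prolyl hydroxylases encoded by Egln1 and Egln3 no longer mark the alpha subunits encoded by Hif1a and Epas1 for degradation, and the stabilised factors raise glycolytic enzymes, Vegfa, Car9 and other targets. In fat tissue this response is known from expanding depots, where adipocytes outgrow their blood supply. Many steps have isozyme genes: Hk1 and Hk2 for hexokinase, Aldoa and Aldoc for aldolase, Eno1 and Eno2 for enolase, Ldha and Ldhb for lactate dehydrogenase. TGF-b1 is the cytokine best known for turning stromal cells into contractile, matrix-making cells.

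Total counts lay between 11154449 and 17288608 per library. Levels are CPM, counts scaled to a common library total after TMM normalisation. They are given as mean ± SD of 3 libraries or for each library, and log2 changes carry the SE of the model. A gene was called where edgeR's quasi-likelihood test gave a Benjamini-Hochberg adjusted p under 0.05 over all genes tested. Smad7, the feedback inhibitor gene that TGF-b is known to induce, averaged 56.5 ± 1.92 CPM with TGF-b1 and SB431542, 145 ± 0.565 CPM with TGF-b1, 114 ± 1.37 CPM in HFD mock and 88.8 ± 3.38 CPM in CD mock. Itga5, the sorted gene, averaged 472 ± 8.82 CPM in Itga5-High and 329 ± 4.68 CPM in Itga5-Low cells. All 10 markers of preadipocytes and fibroblasts had counts in all groups, with summed levels from 12477 to 27201 CPM in undifferentiated and from 50287 to 52651 CPM in differentiated cells. Such sums follow the most abundant markers. The collagen gene Col1a1 averaged 2067 ± 12.1 CPM with TGF-b1 and SB431542, 14769 ± 22.8 CPM with TGF-b1, 12955 ± 37.2 CPM in HFD mock and 8930 ± 58.2 CPM in CD mock. It averaged 26348 ± 166 CPM in Itga5-High and 21146 ± 95.4 CPM in Itga5-Low cells. Of 10 adipocyte markers, Lep was at 0 or not listed in all groups. The comparisons with CD mock share its libraries, and both comparisons of TGF-b1 alone share the TGF-b1 libraries, so their values are set side by side and their likeness was not tested.

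The promoters of 7 members, chosen after their values were seen to stand for the glycolysis, lactate and hypoxia genes described here, are shown first. The core of the site bound by hypoxia-inducible factors was searched as ACGTG and as GCGTG, and only ACGTG is in capitals. The windows of 300 bases run from 250 bases before to 50 bases after a RefSeq transcript start on build GRCm38.p6 and read 5′ to 3′ along the gene. Capitals mark ACGTG or its reverse complement CACGT, and CACGTG where both overlap. Hk2 (chr6:82774405-82774704, minus strand) encodes the inducible hexokinase, Ldha (chr7:46845554-46845853, plus strand) and Ldhb (chr6:142507908-142508207, minus strand) the lactate dehydrogenase subunits, Slc16a3 (chr11:120948817-120949116, plus strand) the lactate exporter MCT4, Egln3 (chr12:54203825-54204124, minus strand) a HIF prolyl hydroxylase, Car9 (chr4:43506776-43507075, plus strand) a cell-surface carbonic anhydrase, and Adm (chr7:110627407-110627706, plus strand) the peptide adrenomedullin.
Hk2: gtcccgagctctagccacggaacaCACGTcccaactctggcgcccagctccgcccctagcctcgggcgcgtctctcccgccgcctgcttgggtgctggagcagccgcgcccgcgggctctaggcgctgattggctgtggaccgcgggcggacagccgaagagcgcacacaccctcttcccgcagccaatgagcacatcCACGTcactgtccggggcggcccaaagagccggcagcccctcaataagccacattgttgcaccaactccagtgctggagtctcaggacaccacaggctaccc
Ldha: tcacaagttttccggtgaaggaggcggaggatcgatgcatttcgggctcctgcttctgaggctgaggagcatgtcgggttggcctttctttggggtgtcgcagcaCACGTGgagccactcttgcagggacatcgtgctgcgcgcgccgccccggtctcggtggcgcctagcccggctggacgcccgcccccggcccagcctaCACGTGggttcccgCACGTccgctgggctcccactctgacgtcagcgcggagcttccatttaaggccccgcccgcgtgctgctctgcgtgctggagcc
Ldhb: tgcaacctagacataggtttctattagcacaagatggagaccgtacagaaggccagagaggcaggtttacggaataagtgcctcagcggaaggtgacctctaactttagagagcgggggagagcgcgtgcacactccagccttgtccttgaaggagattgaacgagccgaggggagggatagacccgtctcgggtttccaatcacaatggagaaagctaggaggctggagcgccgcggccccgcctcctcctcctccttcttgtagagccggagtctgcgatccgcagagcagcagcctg
Slc16a3: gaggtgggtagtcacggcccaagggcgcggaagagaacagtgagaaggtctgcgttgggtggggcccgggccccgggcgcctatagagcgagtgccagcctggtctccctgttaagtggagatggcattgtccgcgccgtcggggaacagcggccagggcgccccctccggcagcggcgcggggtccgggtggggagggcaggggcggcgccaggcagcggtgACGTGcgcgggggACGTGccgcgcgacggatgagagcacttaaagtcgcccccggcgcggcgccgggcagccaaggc
Egln3: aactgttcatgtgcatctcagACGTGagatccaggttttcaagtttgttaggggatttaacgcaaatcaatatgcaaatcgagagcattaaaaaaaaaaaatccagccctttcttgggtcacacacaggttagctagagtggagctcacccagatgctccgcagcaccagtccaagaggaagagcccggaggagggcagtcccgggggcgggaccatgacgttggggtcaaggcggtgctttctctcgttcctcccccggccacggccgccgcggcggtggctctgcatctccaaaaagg
Car9: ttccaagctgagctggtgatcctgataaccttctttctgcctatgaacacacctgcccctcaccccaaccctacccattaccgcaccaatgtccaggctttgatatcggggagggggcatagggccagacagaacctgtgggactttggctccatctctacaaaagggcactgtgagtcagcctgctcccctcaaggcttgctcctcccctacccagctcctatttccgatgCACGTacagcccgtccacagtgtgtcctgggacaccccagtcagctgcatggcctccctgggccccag
Adm: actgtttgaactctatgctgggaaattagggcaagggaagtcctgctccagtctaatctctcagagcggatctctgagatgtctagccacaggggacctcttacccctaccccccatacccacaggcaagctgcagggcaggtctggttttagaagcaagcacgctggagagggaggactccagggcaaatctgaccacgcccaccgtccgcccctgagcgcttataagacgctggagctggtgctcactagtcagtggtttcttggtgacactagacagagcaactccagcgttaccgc

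The Ldha window held ACGTG 5 times counted over both strands, Hk2 and Slc16a3 held it 2 times, Egln3 and Car9 held it 1 time, and the Ldhb and Adm windows did not hold it. GCGTG, the other form of the core, stood 2 times in the Ldha and Adm windows and 1 time in the Ldhb window. The windows shown for Hk2, Slc16a3, Egln3 and Car9 did not hold GCGTG. Promoters were found for 31 of the 33 members. Searched on both strands in every window of a gene, ACGTG stood in 21 of these 31 members (67.7%), against 21.8% of the 27025 genes with a promoter. By class it stood in 14 of 23 glycolysis members (60.9%) and in 7 of 8 hypoxia members (87.5%), all but Adm. GCGTG, which shares its last 4 letters with ACGTG, stood in 64.5% of members and 35.2% of all genes. A gene with more windows has more chances of a match, and the 27025 genes had 32851 windows in all. They were not matched to the members in windows per gene, and they include genes outside the count tables. A match describes these letters only and is not evidence of binding.

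The comparison of TGF-b1 with CD mock asked how the cytokine changed control-diet preadipocytes. Transcripts for glucose uptake and its conversion to lactate were higher at most steps: the hexokinase gene Hk2 rose 2.07-fold, Eno1 1.70-fold, Pfkp 1.66-fold, Slc16a3 1.64-fold, Pgam1 1.63-fold and Ldha 1.48-fold. In the same cells the sister isozyme genes Ldhb, Eno2 and Aldoc fell 3.52-fold, 2.25-fold and 2.77-fold. Among hypoxia genes Adm, Egln3, Epas1 and Car9 fell most, while Vegfa rose 1.41-fold. Of the 33 members, 18 rose, 12 fell and 3 were not called, where 67.8% of all 14078 genes were called, 33.5% higher and 34.3% lower. By at least 0.5 log2, 8 rose and 9 fell, against 10.8% and 19.2% of all genes (30.0% in either direction). The median log2 change was 0.39 over the 23 glycolysis members and -0.53 over the 10 hypoxia members, beside -0.02 over all genes tested.

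At glucose entry, Slc2a1, the widespread glucose carrier GLUT1, Hk1 and Hk2 all rose. Hk2 had 203, 203 and 209 CPM in the TGF-b1 libraries, against 98.3, 98.1 and 100 CPM in CD mock. All TGF-b1 libraries lay far above all mock libraries, and the change was 1.05 ± 0.029 log2 (edgeR adjusted p = 2.20e-40). Hk1, the housekeeping hexokinase, changed by 0.50 ± 0.032 log2 and Slc2a1 by 0.43 ± 0.033 log2.

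Of the 13 enzymes from Gpi1 to Pkm, 10 rose, 2 fell and Pfkl, the liver-type phosphofructokinase, was not called at -0.05 ± 0.034 log2. Eno1, which encodes the general enolase, had 1006, 986 and 978 CPM in the TGF-b1 libraries, against 564, 603 and 579 CPM in CD mock. These groups did not overlap, and Eno1 changed by 0.76 ± 0.016 log2 (edgeR adjusted p = 2.21e-47). Eno2, the enolase gene named for neurons, went the other way, with 19.5, 18 and 19.8 CPM in the TGF-b1 libraries, against 41.1, 46.0 and 41.5 CPM in CD mock. The groups were again apart, and the change was -1.17 ± 0.069 log2. Pgam1, phosphoglycerate mutase, changed by 0.71 ± 0.015 log2, and Pkm, pyruvate kinase, by 0.43 ± 0.010 log2. Aldoc, the brain-type aldolase gene, changed by -1.47 ± 0.15 log2 on 118 counts over the TGF-b1 libraries and 322 over CD mock, while the general aldolase Aldoa changed by 0.32 ± 0.012 log2. The smallest increases called, 0.16 log2 for Gpi1 and Tpi1, were 0.01 log2 and not called under scaling by total counts. With that scaling the 13 enzymes numbered 7 higher, 3 lower and 3 not called, as Pfkm, at 0.12 log2, lost its call and Pfkl was called lower at -0.20 log2.

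Lactate genes split by isoform. Ldhb, whose subunit is known to favour the conversion of lactate to pyruvate, had 15.9, 16.4 and 17 CPM in the TGF-b1 libraries, against 59.6, 59.1 and 55.3 CPM in CD mock. No library of the 2 groups overlapped, and Ldhb changed by -1.82 ± 0.062 log2 (edgeR adjusted p = 2.85e-35). Ldha, the pyruvate-reducing subunit, changed by 0.56 ± 0.013 log2. Slc16a3 had 141, 139 and 145 CPM in the TGF-b1 libraries, against 86.2, 89.7 and 82.7 CPM in CD mock, a change of 0.72 ± 0.035 log2. Slc16a1, the carrier MCT1 with higher affinity for lactate, changed by -0.70 ± 0.041 log2, opposite to its sister gene. Among regulators of flux, Pfkfb3, which makes the activator of phosphofructokinase, changed by 0.42 ± 0.053 log2. Pdk1, which restrains pyruvate dehydrogenase, changed by -0.36 ± 0.077 log2, and Pfkfb4 was not called at 0.17 ± 0.093 log2.

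Oxygen sensing genes fell in 3 of 4 with TGF-b1. Epas1, which encodes HIF-2 alpha, had 72.0, 77.4 and 66.1 CPM in the TGF-b1 libraries, against 279, 281 and 281 CPM in CD mock. The groups stood 3.93-fold apart with no overlap, at -1.97 ± 0.029 log2 (edgeR adjusted p = 1.96e-55). Hif1a changed by only -0.37 ± 0.018 log2. Egln3 had 5.88, 7.27 and 6.88 CPM in the TGF-b1 libraries, against 49.8, 47.4 and 43.5 CPM in CD mock, whereas Egln1 was higher at 0.48 ± 0.035 log2. Egln3 changed by -2.81 ± 0.083 log2, with no overlap.

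Among the 6 hypoxia targets, 4 fell, Vegfa rose and Ankrd37 was not called. Adm, which encodes the vasodilator peptide adrenomedullin, had 29.1, 30.0 and 29.9 CPM in the TGF-b1 libraries, against 182, 180 and 177 CPM in CD mock. The separation was complete, and Adm changed by -2.60 ± 0.038 log2 (edgeR adjusted p = 1.77e-55). Car9 was at 0.341, 0.709 and 0.405 CPM in the TGF-b1 libraries, against 3.43, 3.25 and 4.54 CPM in CD mock. It rested on 18 counts over the TGF-b1 libraries and 138 over CD mock, and its change of -2.94 ± 0.292 log2 carried the widest error of the members called in this comparison. Ndrg1, a stress-responsive gene of the N-myc downregulated family, changed by -0.68 ± 0.040 log2, and Bnip3, which marks mitochondria for removal, by -0.24 ± 0.062 log2. Vegfa, the angiogenic growth factor, had 267, 259 and 269 CPM in the TGF-b1 libraries, against 190, 187 and 189 CPM in CD mock, and rose by 0.49 ± 0.023 log2.

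Beside these changes, mesothelial markers fell in 8 of 9 and summed to 682 to 697 CPM with TGF-b1, against 2375 to 2413 CPM in CD mock. Endothelial markers fell in 7 of 9, with sums of 232 to 234 CPM with TGF-b1 and 415 to 432 CPM in CD mock. Adipocyte markers fell in 9 of 9 tested, with sums of 84.8 to 88.2 CPM with TGF-b1 and 238 to 241 CPM in CD mock, and Retn was also at 0 with TGF-b1. Macrophage markers rose in 4 and fell in 4 of 10. Preadipocyte and fibroblast markers rose in 3 and fell in 7 of 10, with sums of 26636 to 26709 CPM with TGF-b1 and 23437 to 23557 CPM in CD mock. Pericyte and smooth muscle markers rose in 3 and fell in 5 of 8, with sums of 707 to 710 CPM with TGF-b1 and 581 to 596 CPM in CD mock. These markers' part in the results was not tested, and in bulk RNA fewer cells of a type and less RNA per cell cannot be told apart. Scaled by total counts, the members numbered 15 higher, 13 lower and 5 not called. This scaling moved the median log2 change of all genes to -0.16 for this comparison, and the share of called genes that were higher was 31.4% in place of 49.4%. Of the 112 other genes of these pathways, 102 were tested, and 45 rose, 42 fell and 15 were not called. Bpgm, which makes 2,3-bisphosphoglycerate in a side branch of glycolysis, rose 3.45-fold to 53.7 ± 1.80 CPM with TGF-b1, against 15.6 ± 0.894 CPM in CD mock. Lox, which encodes the collagen cross-linking enzyme lysyl oxidase, rose 2.42-fold. Stc1, a glycoprotein hormone, fell to 0.292 ± 0.0423 CPM with TGF-b1, against 8.24 ± 0.556 CPM in CD mock. Its values rested on 11 counts over the TGF-b1 libraries and 305 over CD mock. Next came Zfp395 at -2.54 ± 0.087 log2 and the pyruvate dehydrogenase phosphatase Pdp1 at -1.85 ± 0.104 log2.

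**Figure D1:**
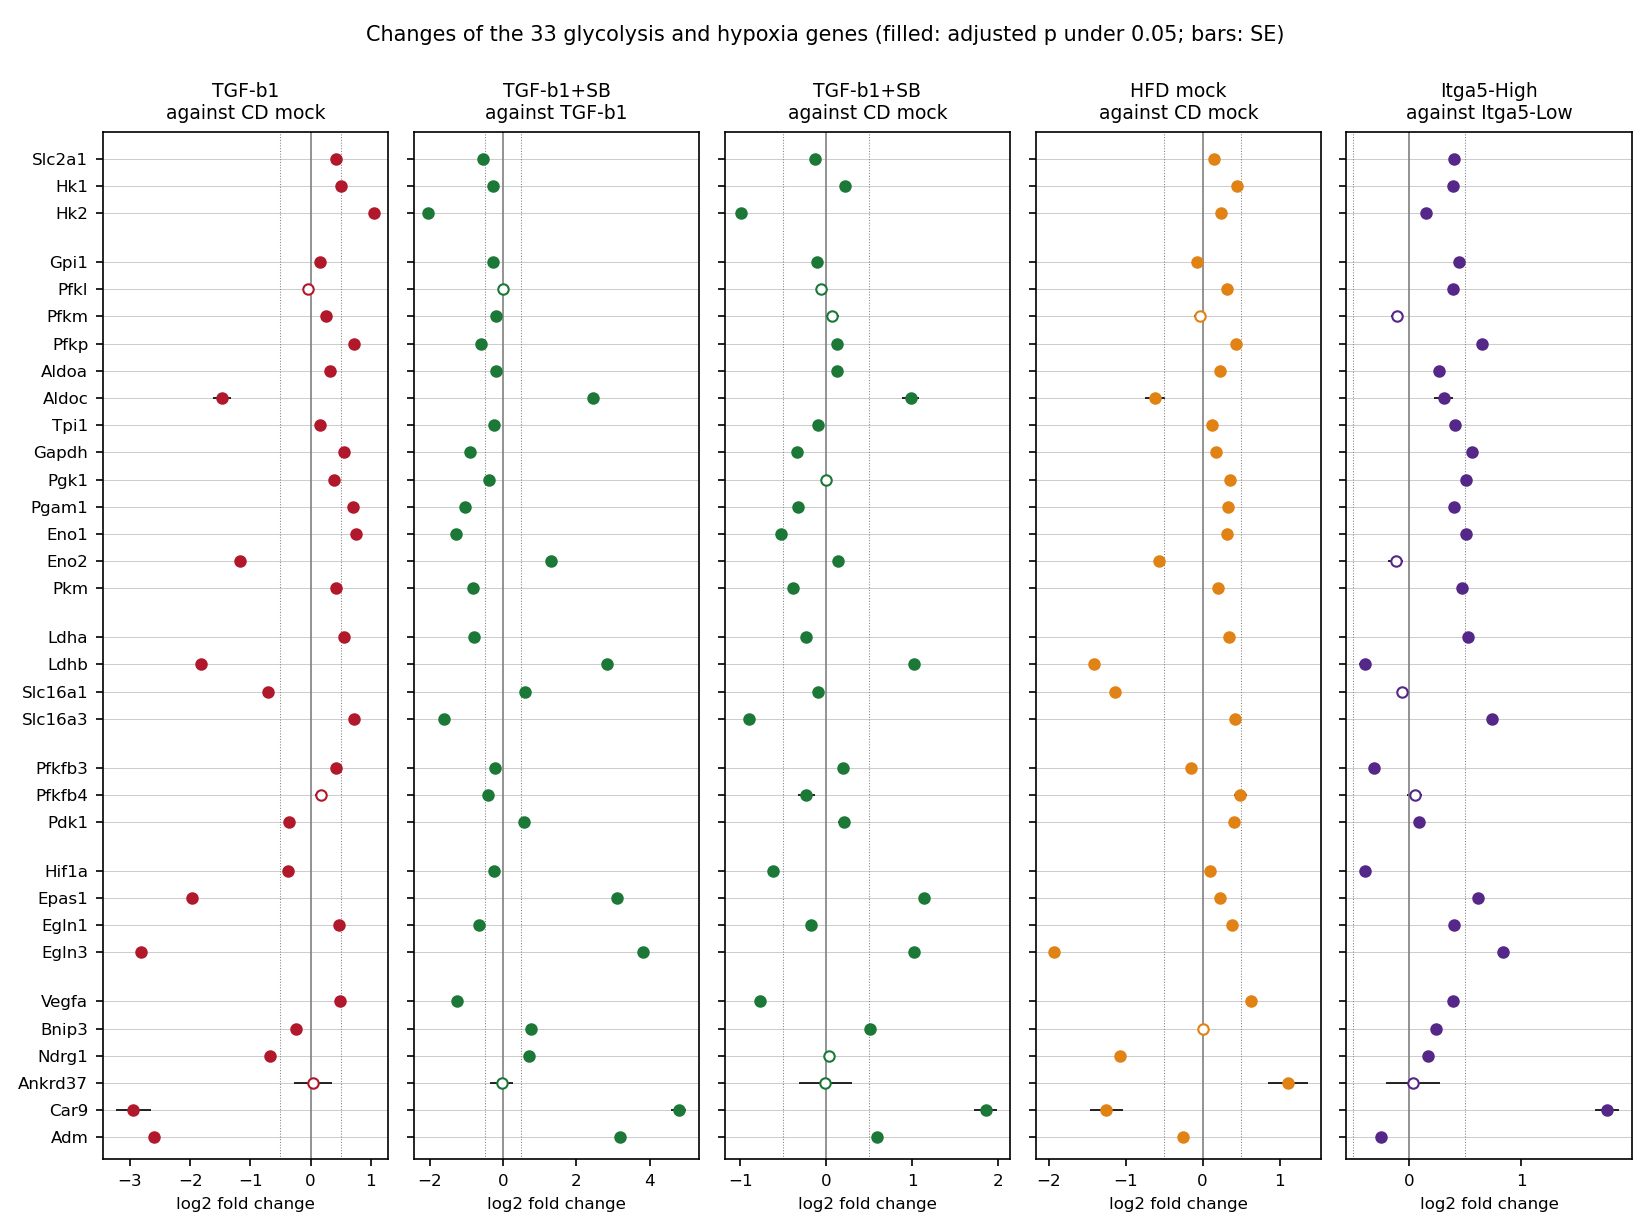
Log2 fold changes of the 33 members (rows, by role) in 5 comparisons (panels, each with its own x axis), with SE bars; filled points have an adjusted p under 0.05 and dotted lines mark 0.5 log2. In the TGF-b1 panel most enzymes lie right of 0 while Ldhb, Epas1, Egln3, Car9 and Adm lie at -1.82 or further left, and in the panel of TGF-b1 with SB431542 against TGF-b1 these genes lie at 2.83 or further right.

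Setting cells given TGF-b1 and SB431542 beside those given TGF-b1 alone asked which of these levels differed when the inhibitor was added. No group was given SB431542 without TGF-b1. Effects of the inhibitor that do not pass through the added TGF-b1 therefore cannot be told apart from a reversal of its response. With the inhibitor Hk2 was 4.13-fold lower, Slc16a3 3.06-fold, Eno1 2.44-fold, Vegfa 2.39-fold and Pgam1 2.06-fold lower. Ldhb was 7.13-fold higher, Aldoc 5.46-fold, Epas1 8.60-fold, Adm 9.11-fold and Egln3 14.2-fold higher. Of the 33 members, 11 rose, 20 fell and 2 were not called, where 79.7% of all genes were called, 41.5% higher and 38.2% lower. By at least 0.5 log2, 11 rose and 11 fell, against 28.0% and 19.9% of all genes (47.9% in either direction). The median log2 change was -0.28 over glycolysis members and 0.73 over hypoxia members, beside 0.04 over all genes. Scaling by total counts moved the median of all genes to 0.29 log2 and gave 13 members higher, 12 lower and 8 not called, and 70.1% of called genes were then higher in place of 52.1%.

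Hk2 had 51.4, 49.2 and 48.0 CPM with TGF-b1 and SB431542, against 203, 203 and 209 CPM with TGF-b1. The inhibitor libraries were all lower, at -2.05 ± 0.033 log2 (edgeR adjusted p = 1.35e-53) or -1.79 log2 with total counts. Hk1 changed by -0.28 ± 0.030 log2, but by -0.02 log2 and without a call with total counts, and Slc2a1 by -0.56 ± 0.033 log2.

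Of the 13 enzymes, 10 fell, Aldoc and Eno2 rose, and Pfkl was not called. With total counts the split was 6 lower, 4 higher and 3 not called. Falls that were called under both scalings were those of Eno1 at -1.29 ± 0.016 log2, Pgam1 at -1.04 ± 0.016 log2, Gapdh at -0.89 ± 0.039 log2, Pkm at -0.83 ± 0.011 log2, Pfkp at -0.61 ± 0.032 log2 and Pgk1, phosphoglycerate kinase, at -0.39 ± 0.019 log2. Gpi1, Pfkm and Tpi1 changed by -0.27, -0.19 and -0.26 log2 in the TMM scaling, and by -0.01, 0.06 and -0.00 log2 without a call with total counts. Aldoa changed by -0.20 log2 and turned to a called 0.05 log2 with total counts. The call of Pfkm was also lost without TGF-b1 replicate 3 and without inhibitor replicate 3. Eno2 was at 47.0, 49.2 and 46.3 CPM with the inhibitor, against 19.5, 18 and 19.8 CPM with TGF-b1, and rose by 1.31 ± 0.067 log2.

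Ldhb reached 118, 117 and 117 CPM with TGF-b1 and SB431542, against 15.9, 16.4 and 17 CPM with TGF-b1. The difference of 2.83 ± 0.053 log2 was the largest of the 23 glycolysis members in this comparison (edgeR adjusted p = 3.31e-50). Slc16a3 had 47.5, 43.6 and 48.0 CPM with the inhibitor, against 141, 139 and 145 CPM with TGF-b1. Ldha changed by -0.80 ± 0.013 log2, Slc16a3 by -1.61 ± 0.039 log2 and Slc16a1 by 0.59 ± 0.041 log2. Pdk1 rose by 0.57 ± 0.073 log2. Pfkfb3 and Pfkfb4 changed by -0.22 ± 0.050 and -0.40 ± 0.095 log2, which were 0.04 and -0.15 log2 without a call under total counts.

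Epas1 had 613, 618 and 609 CPM with TGF-b1 and SB431542, against 72.0, 77.4 and 66.1 CPM with TGF-b1. The gap was 3.10 ± 0.025 log2 (edgeR adjusted p = 1.66e-70), while Hif1a changed by -0.25 ± 0.019 log2, or 0.01 log2 and no call with total counts. Egln3 reached 99.3, 92.0 and 94.7 CPM with the inhibitor, against 5.88, 7.27 and 6.88 CPM with TGF-b1. It rose by 3.83 ± 0.070 log2 and Egln1 fell by 0.66 log2. Adm had 272, 271 and 269 CPM with the inhibitor, against 29.1, 30.0 and 29.9 CPM with TGF-b1, a change of 3.19 ± 0.035 log2. Car9 averaged 13.4 ± 1.06 CPM with the inhibitor and 0.485 ± 0.197 CPM with TGF-b1, a change of 4.79 ± 0.213 log2. Bnip3 rose by 0.76 ± 0.057 log2 and Ndrg1 by 0.71 ± 0.039 log2, so 4 of 6 targets were higher. Vegfa went against them, with 111, 107 and 114 CPM with TGF-b1 and SB431542, against 267, 259 and 269 CPM with TGF-b1.

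Marker sums of 5 other cell types were higher with the inhibitor, while that of preadipocytes and fibroblasts was lower. Preadipocyte and fibroblast markers summed to 12477 to 12589 CPM with the inhibitor, against 26636 to 26709 CPM with TGF-b1, although 7 of 10 were higher and 3 lower. Pericyte and smooth muscle markers summed to 866 to 893 CPM with the inhibitor, against 707 to 710 CPM with TGF-b1, with 5 of 8 higher and 3 lower. Mesothelial markers summed to 2096 to 2099 CPM with the inhibitor, against 682 to 697 CPM with TGF-b1, with 7 of 9 higher and 2 lower. Endothelial markers summed to 852 to 873 CPM with the inhibitor, against 232 to 234 CPM with TGF-b1, with 7 of 9 higher and 2 lower. Macrophage markers summed to 1060 to 1083 CPM with the inhibitor, against 599 to 618 CPM with TGF-b1 (9 of 10 higher, 1 lower), and adipocyte markers to 1099 to 1102 CPM with the inhibitor, against 84.8 to 88.2 CPM with TGF-b1 (9 of 9 tested higher). Their part in the member changes was not tested. Of the other 102 pathway genes tested, 42 rose, 47 fell and 13 were not called. Stc1, the muscle glycogen phosphorylase Pygm and Zfp395 rose most. Stc1 reached 12.3 ± 0.0838 CPM with the inhibitor, against 0.292 ± 0.0423 CPM on only 11 counts with TGF-b1. Lox and the muscle-type enolase Eno3 were among the genes that fell most, and Eno3 was at 7.06 ± 0.0731 CPM with the inhibitor and 42.5 ± 1.01 CPM with TGF-b1.

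**Figure D2:**
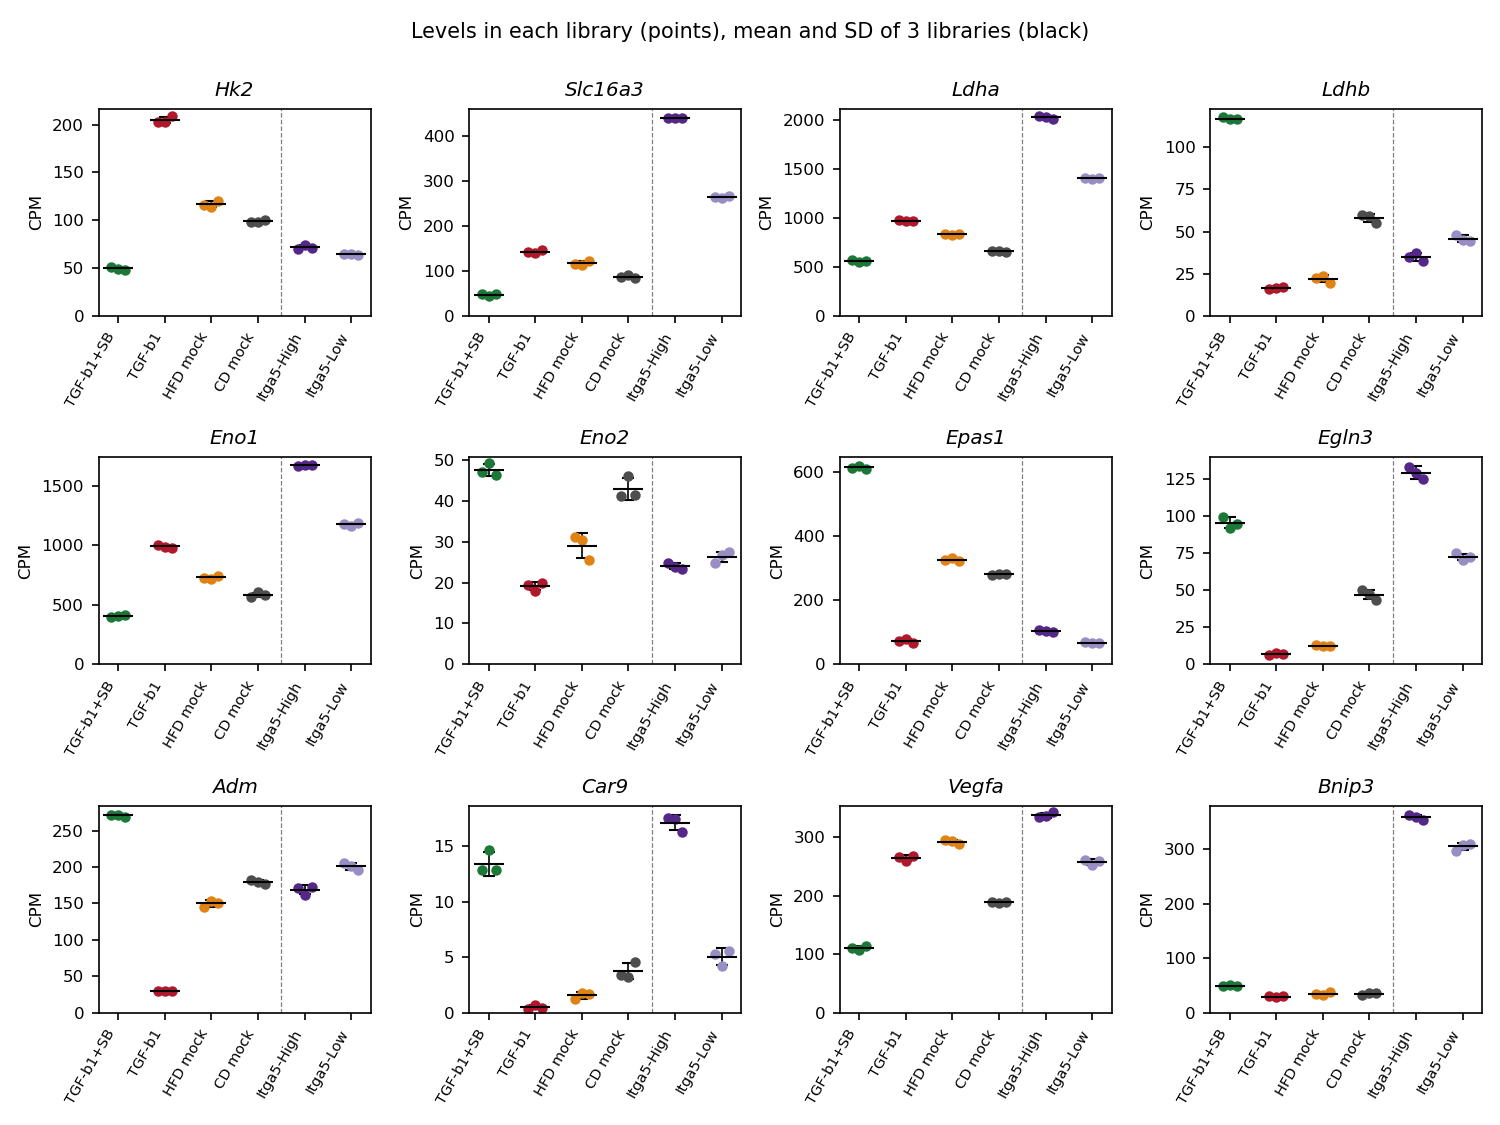
CPM of 12 members in each library (points; y axes start at 0 and differ between genes), with mean and SD of 3 libraries in black; the dashed line separates the undifferentiated from the differentiated table, which were scaled separately. Epas1, Egln3, Adm and Ldhb are lowest with TGF-b1 among the undifferentiated groups, and highest there with TGF-b1 and SB431542.

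Setting the same inhibited cells beside CD mock cells asked how far the inhibited cells stood from untreated cells. Several members lay beyond the mock level on the side opposite to TGF-b1. Ldhb was 2.02-fold higher than in mock, Egln3 2.03-fold, Epas1 2.19-fold, Aldoc 1.97-fold and Car9 3.60-fold higher. Hk2 was 1.99-fold, Slc16a3 1.86-fold, Vegfa 1.70-fold and Eno1 1.44-fold lower. Hif1a, 1.54-fold lower, lay on the same side as with TGF-b1 alone, where it changed by -0.37 ± 0.018 log2. In all, 13 of 33 members were higher, 15 lower and 5 not called, where 61.2% of all genes were called, 30.7% higher and 30.5% lower. By at least 0.5 log2, 7 were higher and 5 lower, against 15.1% and 8.29% of all genes (23.4% in either direction). Median log2 changes were -0.10 over glycolysis members, 0.27 over hypoxia members and 0.01 over all genes. With total counts the median over all genes was 0.12 log2, and 16 were higher, 9 lower and 8 not called, and 67.6% of called genes were higher in place of 50.2%.

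Hk2 had 51.4, 49.2 and 48.0 CPM with TGF-b1 and SB431542, against 98.3, 98.1 and 100 CPM in CD mock. The groups were apart by -0.99 ± 0.039 log2 (edgeR adjusted p = 4.66e-32). Hk1 was higher by 0.22 ± 0.033 log2. Of 13 enzymes 4 were higher, 6 lower and 3 not called. Eno1 at -0.52 ± 0.018 log2, Pkm at -0.39 ± 0.011 log2, Gapdh at -0.34 ± 0.042 log2 and Pgam1 at -0.33 ± 0.017 log2 were lower under both scalings. Pgk1 was not called at 0.00 ± 0.020 log2, nor were Pfkl at -0.06 ± 0.033 and Pfkm at 0.07 ± 0.075 log2. With total counts 6 enzymes were higher, 4 lower and 3 not called, with Pgk1 called higher at 0.11 log2 and Pfkm at 0.18 log2. The call of Eno2, 0.14 ± 0.056 log2 higher, was lost in DESeq2 and without any 1 of CD mock replicates 1 and 3 and inhibitor replicate 2.

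Ldhb had 118, 117 and 117 CPM with the inhibitor, against 59.6, 59.1 and 55.3 CPM in CD mock, at 1.02 ± 0.040 log2. Slc16a3 averaged 46.4 ± 2.41 CPM with the inhibitor and 86.2 ± 3.53 CPM in CD mock. Ldha was lower by a smaller step, -0.24 ± 0.014 log2. Slc16a1, at -0.10 ± 0.037 log2, was called lower, but not without CD mock replicate 3 nor with total counts, where it was 0.00 log2. Pfkfb4, at -0.23 ± 0.098 log2, lost its call in DESeq2, with total counts and without any 1 of CD mock replicates 2 and 3 and the 3 inhibitor replicates. Egln3 averaged 95.3 ± 3.68 CPM with the inhibitor and 46.9 ± 3.18 CPM in CD mock, and Epas1 614 ± 4.54 CPM with the inhibitor and 280 ± 1.35 CPM in CD mock. Both groups of libraries were apart for each gene. Adm changed by 0.59 ± 0.023 log2, Bnip3 by 0.51 ± 0.055 log2 and Ndrg1, not called, by 0.03 ± 0.035 log2. Mesothelial markers summed to 2096 to 2099 CPM with the inhibitor and 2375 to 2413 CPM in CD mock (1 higher and 6 lower of 9). Endothelial markers summed to 852 to 873 CPM with the inhibitor and 415 to 432 CPM in CD mock (6 higher and 2 lower of 9). Macrophage markers summed to 1060 to 1083 CPM with the inhibitor and 535 to 548 CPM in CD mock (10 of 10 higher), and adipocyte markers to 1099 to 1102 CPM with the inhibitor and 238 to 241 CPM in CD mock (9 of 9 tested higher). Preadipocyte and fibroblast markers summed to 12477 to 12589 CPM with the inhibitor and 23437 to 23557 CPM in CD mock (4 higher and 6 lower of 10). Pericyte and smooth muscle markers summed to 866 to 893 CPM with the inhibitor and 581 to 596 CPM in CD mock (5 higher and 2 lower of 8). Their part in these results was not tested. Of the other 102 pathway genes tested, 39 were higher, 36 lower and 27 not called. Angptl4, a secreted inhibitor of lipoprotein lipase, stood at 78.4 ± 3.12 CPM with the inhibitor and 24.7 ± 1.51 CPM in CD mock. Slc2a4, the insulin-responsive glucose carrier GLUT4, stood at 16.9 ± 1.82 CPM with the inhibitor and 5.83 ± 0.978 CPM in CD mock. Pygm was also among the 3 most raised, and Lox and Eno3 were among those lowest relative to mock.

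The comparison of HFD mock with CD mock asked what diet of the donor mice left in cultured preadipocytes. Ldhb fell 2.66-fold, Egln3 3.81-fold, Slc16a1 2.21-fold, Ndrg1 2.10-fold and Car9 2.38-fold, while most enzymes rose by small steps and Vegfa rose 1.55-fold. Of the 33 members, 21 rose, 10 fell and 2 were not called, where 54.0% of all genes were called, 27.2% higher and 26.8% lower. By at least 0.5 log2, 2 rose and 7 fell, against 8.64% and 12.3% of all genes. Median log2 changes were 0.22 over glycolysis members and 0.04 over hypoxia members, beside -0.01 over all genes. With total counts the median over all genes was -0.09 log2, and 17 rose, 10 fell and 6 were not called, and 33.6% of called genes were higher in place of 50.4%.

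Hk1 changed by 0.44 ± 0.032 log2, Hk2 by 0.24 ± 0.032 log2 and Slc2a1 by 0.15 ± 0.034 log2, the last not called with total counts. Of 13 enzymes, 9 rose, 3 fell and Pfkm was not called. Pfkp at 0.43 ± 0.035 log2, Pgk1 at 0.36 ± 0.019 log2, Pgam1 at 0.33 ± 0.016 log2 and Eno1 at 0.32 ± 0.016 log2 rose most. Eno2 had 31.2, 30.4 and 25.5 CPM in HFD mock, against 41.1, 46.0 and 41.5 CPM in CD mock, at -0.57 ± 0.062 log2. Aldoc was the other isozyme gene that fell, at -0.62 ± 0.129 log2, and Gpi1 fell by 0.07 log2. With total counts 7 enzymes rose, 3 fell and 3 were not called, as Tpi1, at 0.03 log2, and Gapdh, at 0.09 log2, lost their calls.

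Ldhb had 22.4, 23.7 and 19.6 CPM in HFD mock, against 59.6, 59.1 and 55.3 CPM in CD mock. The libraries did not overlap, and the change was -1.41 ± 0.057 log2 (edgeR adjusted p = 3.28e-31). Slc16a1 had 40.3, 46.0 and 42.9 CPM in HFD mock, against 95.8, 90.6 and 99.2 CPM in CD mock, at -1.14 ± 0.044 log2. Ldha and Slc16a3 rose by 0.34 ± 0.013 and 0.42 ± 0.036 log2. Pfkfb4 and Pdk1 rose by 0.49 ± 0.088 and 0.41 ± 0.067 log2. Pfkfb3 was called lower at -0.15 ± 0.057 log2, but not in DESeq2 nor without any 1 of CD mock replicates 1 and 2 and HFD mock replicate 1.

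Egln3 had 12.7, 12.3 and 11.9 CPM in HFD mock, against 49.8, 47.4 and 43.5 CPM in CD mock. It was the oxygen sensing gene with the largest change, -1.93 ± 0.071 log2 (edgeR adjusted p = 1.53e-33). Epas1 rose by 0.22 ± 0.021 log2 and Egln1 by 0.38 ± 0.035 log2, and Hif1a by 0.09 ± 0.017 log2, or 0.00 log2 without a call with total counts. Ndrg1 had 52.9, 55.5 and 49.7 CPM in HFD mock, against 117, 107 and 107 CPM in CD mock. Vegfa had 295, 294 and 289 CPM in HFD mock, against 190, 187 and 189 CPM in CD mock, and changed by 0.63 ± 0.022 log2. Car9, at 1.57 ± 0.314 CPM in HFD mock and 3.74 ± 0.698 CPM in CD mock, rested on 63 and 138 counts. Ankrd37, an ankyrin repeat gene, rose by 1.11 ± 0.260 log2 on 113 counts over HFD mock and 48 over CD mock. Adm fell by 0.26 log2, and Bnip3 was not called at -0.00 ± 0.059 log2.

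Macrophage markers rose in 10 of 10, with sums of 2501 to 2527 CPM in HFD mock and 535 to 548 CPM in CD mock, and Adgre1, a macrophage surface receptor gene, averaged 116 ± 1.12 CPM in HFD mock and 16.0 ± 1.03 CPM in CD mock. Mesothelial markers fell in 9 of 9, at 625 to 639 CPM in HFD mock and 2375 to 2413 CPM in CD mock. Endothelial markers fell in 8 of 9, at 175 to 182 CPM in HFD mock and 415 to 432 CPM in CD mock, and adipocyte markers in 8 of 9 tested, at 137 to 148 CPM in HFD mock and 238 to 241 CPM in CD mock. Preadipocyte and fibroblast markers rose in 3 and fell in 7 of 10, at 27063 to 27201 CPM in HFD mock and 23437 to 23557 CPM in CD mock. Pericyte and smooth muscle markers rose in 2 and fell in 5 of 8, at 560 to 578 CPM in HFD mock and 581 to 596 CPM in CD mock. Their part in the member changes was not tested. Of the other 102 pathway genes tested, 34 rose, 33 fell and 35 were not called. Slc16a7, the carrier MCT2, Pdk4, a kinase that restrains pyruvate dehydrogenase, and Hk3, a hexokinase typical of myeloid cells, rose most. Hk3 averaged 44.5 ± 1.42 CPM in HFD mock and 18.4 ± 0.847 CPM in CD mock. Zfp395, the glucose carrier Slc2a3 and metallothionein Mt2 fell most, Slc2a3 to 17.5 ± 0.944 CPM in HFD mock, against 43.1 ± 2.49 CPM in CD mock.

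The comparison of Itga5-High with Itga5-Low cells asked how cells sorted on integrin alpha 5 differed after adipogenic induction. Transcripts for most steps from glucose to exported lactate were higher in Itga5-High cells, with Slc16a3 1.67-fold, Pfkp 1.57-fold, Gapdh 1.47-fold, Ldha 1.44-fold, Eno1 and Pgk1 1.42-fold and Pkm 1.38-fold higher. Car9 was 3.41-fold, Egln3 1.79-fold and Epas1 1.53-fold higher, whereas Hif1a and Ldhb were 1.31-fold lower. Of the 33 members, 24 were higher, 4 lower and 5 not called, where 53.6% of all 13468 genes were called, 27.1% higher and 26.5% lower. By at least 0.5 log2, 9 were higher, against 6.56% of all genes, and 0 lower, against 7.36%. Without that minimum the 4 lower members were Ldhb, Pfkfb3, Hif1a and Adm. The median log2 change was 0.39 over glycolysis members and 0.31 over hypoxia members, beside -0.00 over all genes. With total counts the median over all genes was -0.04 log2, and 23 members were higher, 7 lower and 3 not called. Of called genes 41.8% were then higher in place of 50.6%. Pgk1, Eno1 and Ldha, among the 9 above, were then under the minimum, at 0.47, 0.47 and 0.49 log2.

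Slc2a1 changed by 0.40 ± 0.024 log2, Hk1 by 0.39 ± 0.021 log2 and Hk2 by 0.15 ± 0.039 log2. Of the 13 enzymes, 11 were higher and Pfkm and Eno2 were not called, while with total counts both were called lower, at -0.15 and -0.17 log2. Pfkm was also called lower without Itga5-High replicate 1 or Itga5-Low replicate 3. Pgk1 had 1414, 1406 and 1426 CPM in Itga5-High, against 996, 994 and 999 CPM in Itga5-Low cells. The groups were clearly apart, at 0.51 ± 0.010 log2 (edgeR adjusted p = 1.28e-41). Pkm had 3229, 3215 and 3201 CPM in Itga5-High, against 2333, 2327 and 2306 CPM in Itga5-Low cells, at 0.47 ± 0.008 log2. The remaining called enzymes changed by 0.27 log2 for Aldoa to 0.65 log2 for Pfkp.

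Slc16a3 had 440, 439 and 440 CPM in Itga5-High, against 263, 261 and 265 CPM in Itga5-Low cells, at 0.74 ± 0.017 log2. Ldha had 2042, 2030 and 2012 CPM in Itga5-High, against 1408, 1397 and 1410 CPM in Itga5-Low cells, at 0.53 ± 0.009 log2. Neither gene's libraries overlapped between the groups. Ldhb was lower, with 35.0, 37.4 and 32.7 CPM in Itga5-High, against 48.0, 44.8 and 44.6 CPM in Itga5-Low cells, at -0.39 ± 0.053 log2. Slc16a1 was not called at -0.06 ± 0.038 log2, and was called lower at -0.10 log2 with total counts. Pdk1, at 0.09 ± 0.030 log2, lost its call with total counts and without Itga5-Low replicate 2.

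Egln3 had 133, 129 and 125 CPM in Itga5-High, against 74.7, 70.1 and 71.9 CPM in Itga5-Low cells, at 0.84 ± 0.034 log2 (edgeR adjusted p = 1.88e-28). Epas1 averaged 103 ± 2.24 CPM in Itga5-High and 67.1 ± 1.90 CPM in Itga5-Low cells, while Hif1a averaged 213 ± 3.96 CPM in Itga5-High and 279 ± 4.24 CPM in Itga5-Low cells. The HIF alpha genes thus lay on opposite sides, Epas1 higher and Hif1a lower in Itga5-High cells. Car9 had 17.5, 17.4 and 16.3 CPM in Itga5-High, against 5.32, 4.16 and 5.58 CPM in Itga5-Low cells, at 1.77 ± 0.106 log2. Vegfa changed by 0.39 ± 0.019 log2, Bnip3 by 0.24 ± 0.018 log2, Ndrg1 by 0.17 ± 0.040 log2 and Adm by -0.25 ± 0.025 log2.

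Adipocyte markers were lower in 7 of 9 tested and higher in 1, with sums of 4600 to 4629 CPM in Itga5-High and 5087 to 5139 CPM in Itga5-Low cells. Sums of mesothelial markers were 101 to 104 CPM in Itga5-High and 42.1 to 44.8 CPM in Itga5-Low cells, with Msln, Krt8, Krt18 and Muc16 at 0 or not listed. Only 2 of 9 were tested, with 1 higher and 1 not called. Macrophage markers summed to 43.5 to 44.7 CPM in Itga5-High and 22.5 to 23 CPM in Itga5-Low cells, with Ptprc at 0 or not listed. Only 4 of 10 were tested, with 2 higher and 2 not called. The macrophage gene Csf1r averaged 29.5 ± 0.626 CPM in Itga5-High and 9.54 ± 0.690 CPM in Itga5-Low cells. Adgre1 averaged 0.172 CPM in Itga5-High and 0.260 CPM in Itga5-Low cells, and C1qa 0.384 CPM in Itga5-High and 0.261 CPM in Itga5-Low cells. Endothelial markers summed to 45.1 to 48.6 CPM in Itga5-High and 48.9 to 51.2 CPM in Itga5-Low cells, with 1 higher and 1 lower of 7 tested. Preadipocyte and fibroblast markers were higher in 2 and lower in 7 of 10, with sums of 52264 to 52651 CPM in Itga5-High and 50287 to 50578 CPM in Itga5-Low cells. Of 7 markers tested for pericytes and smooth muscle, 3 were higher and 3 lower, and the sums over all 8 overlapped, at 102 to 107 CPM in Itga5-High and 95.8 to 108 CPM in Itga5-Low cells. Their part in the member changes was not tested. Of the other pathway genes, 102 were tested, with 47 higher, 29 lower and 26 not called. Car12, a carbonic anhydrase like Car9, Angptl4 and Anln, a scaffold protein of cell division, were raised most, Angptl4 at 542 ± 5.63 CPM in Itga5-High and 251 ± 4.23 CPM in Itga5-Low cells. Ppp1r3c, a glycogen-targeting phosphatase subunit, Pck1, the key enzyme of gluconeogenesis and glyceroneogenesis, and Pdp1 were lowered most. Pdp1 averaged 26.7 ± 1.15 CPM in Itga5-High and 49.1 ± 2.0 CPM in Itga5-Low cells.

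Isozyme shares were computed within each library on counts per kilobase of transcript, so that they do not depend on library scaling. Of 45 tests (9 shares in 5 comparisons), 41 showed no overlap between groups, 9 of 9 in TGF-b1 against CD mock and 7 of 9 in Itga5-High against Itga5-Low. How often shares of other gene pairs were without overlap was not computed, and 53.6% to 79.7% of all genes were called in these comparisons. The count therefore cannot be read as a trait of these genes. Pfkp and Pfkl are shares of the same total, so the tests are not independent. With 3 libraries against 3, the exact two-sided permutation test cannot give a p below 0.10 (0.110 after Benjamini-Hochberg adjustment over the 45), which all 41 reached. The share of Ldhb in the Ldha and Ldhb total averaged 20.8 ± 0.192% with TGF-b1 and SB431542, 2.08 ± 0.0686% with TGF-b1, 3.22 ± 0.329% in HFD mock and 9.96 ± 0.274% in CD mock. Of the lactate carriers Slc16a1 and Slc16a3, Slc16a3 made up 48.8 ± 1.27% with TGF-b1 and SB431542, 81.4 ± 0.814% with TGF-b1, 82.9 ± 1.15% in HFD mock and 62.1 ± 2.07% in CD mock. Hk2 made up, of the Hk1 and Hk2 total, 23.1 ± 0.621% with TGF-b1 and SB431542, 50.6 ± 1.27% with TGF-b1, 37.8 ± 0.393% in HFD mock and 41.1 ± 0.368% in CD mock.

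Egln3 was 62.5 ± 0.912% of the Egln1 and Egln3 total with TGF-b1 and SB431542, 6.90 ± 0.798% with TGF-b1, 12.7 ± 0.388% in HFD mock and 42.1 ± 0.731% in CD mock. Epas1 was 66.7 ± 0.0954% of the HIF alpha total with TGF-b1 and SB431542, 16.5 ± 1.15% with TGF-b1, 39.6 ± 0.233% in HFD mock and 37.4 ± 0.121% in CD mock. So the more abundant HIF alpha transcript, per length, was Epas1 with the inhibitor and Hif1a in the other 3 groups. In differentiated cells Epas1 was 29.4 ± 0.798% in Itga5-High and 17.3 ± 0.595% in Itga5-Low cells. Ldhb was 2.10 ± 0.134% in Itga5-High and 3.90 ± 0.147% in Itga5-Low cells, and Slc16a3 was 91.5 ± 0.192% of the carriers in Itga5-High and 86.2 ± 0.425% in Itga5-Low cells. Among phosphofructokinases, Pfkl was 70.5 ± 0.713% in Itga5-High and 71.3 ± 0.861% in Itga5-Low cells, an overlap, and 49.5 ± 0.466% in CD mock.

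**Figure D3:**
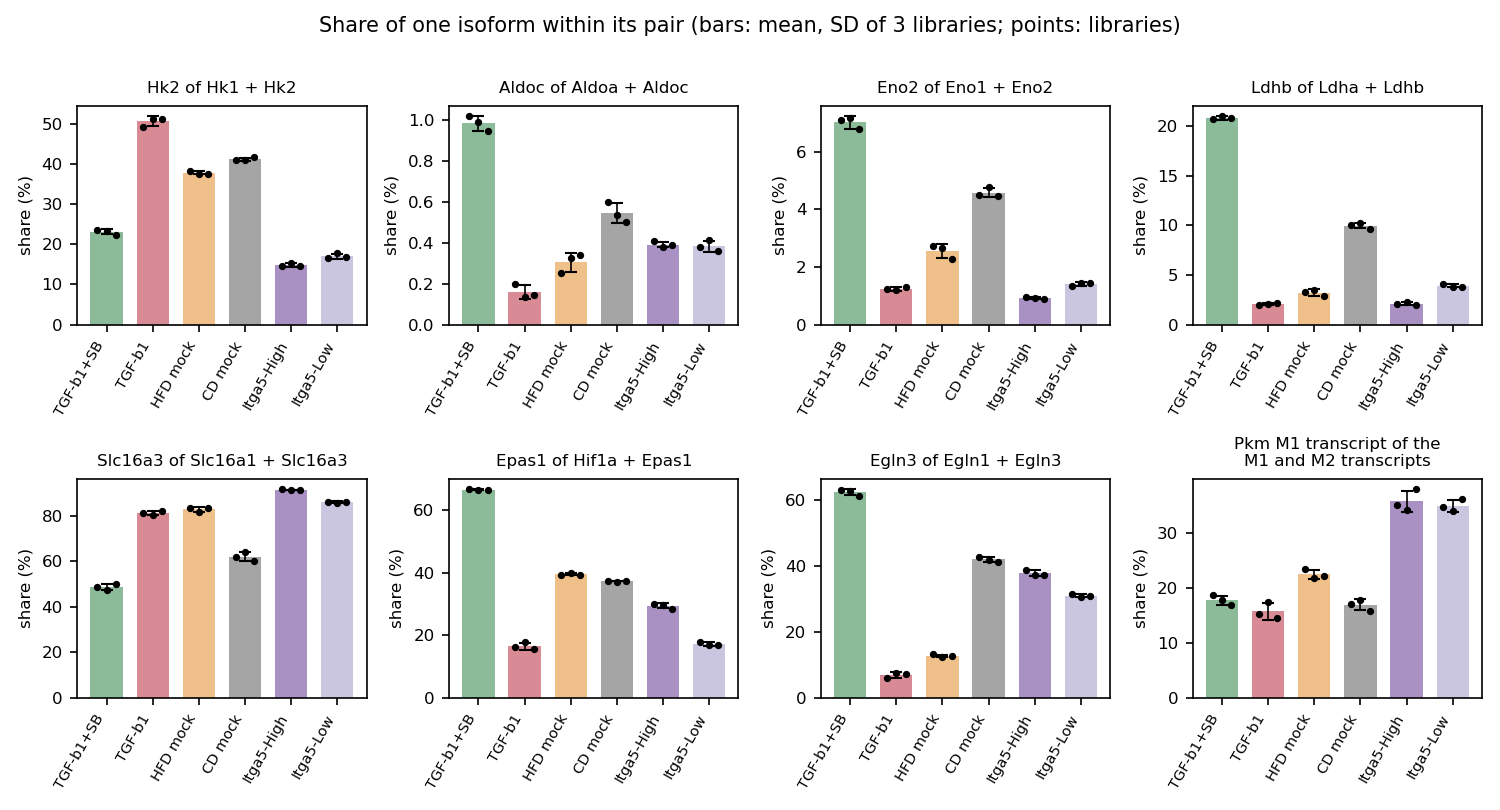
Share of a named gene within its isozyme or carrier pair in each group, and of the Pkm M1 transcript among the M1 and M2 transcripts (percent, on counts per kilobase for genes and on counts for the Pkm transcripts; bars are means with SD, points are the 3 libraries). The Ldhb and Egln3 shares are lowest with TGF-b1 among the undifferentiated groups, at 2.08% and 6.90%, and highest with TGF-b1 and SB431542, at 20.8% and 62.5%.

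Per kilobase of transcript, the most abundant members were Pkm and Aldoa in all 6 groups, followed by Ldha and Eno1. In CD mock Pkm stood at 690 CPM per kilobase, Aldoa at 588, Ldha at 409 and Eno1 at 330, while the hexokinases and phosphofructokinases lay between 7.85 for Pfkm and 28.8 for Pfkl. Among hypoxia members Adm was highest in CD mock at 129 CPM per kilobase, and at 21.3 CPM per kilobase with TGF-b1 it stood below Vegfa at 78.1 and Hif1a at 67.8. Gapdh was listed at only 55.8 CPM per kilobase in CD mock, below the enzymes that neighbour it in the pathway. Its near-identical pseudogenes could have taken reads under the authors' counting, so its level and the changes given for it above are uncertain. Gene sums of Pfkp, Aldoa, Eno1, Ldha and Hif1a were not whole, within 0.01, in any of the 12 undifferentiated libraries, which counting each read once would not give. Car9 overlaps genes on the opposite strand, Arhgef39 and Tpm2. Slc2a1, Hk1, Pfkm, Pfkp, Tpi1, Pkm and Ankrd37 each overlap 1 opposite-strand gene, and the strand setting of the counting is not given, so reads of these 8 members could not be assigned to strands here.

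The 13 enzymes together summed to 4292 ± 18.8 CPM with TGF-b1 and SB431542, 6651 ± 19.8 CPM with TGF-b1, 5714 ± 10.7 CPM in HFD mock and 4912 ± 39.3 CPM in CD mock. This order, with TGF-b1 highest and the inhibitor lowest, held on total counts, where the sums ran from 4714 to 4748 with the inhibitor, 6118 to 6135 with TGF-b1, 5496 to 5511 in HFD mock and 4975 to 5048 in CD mock. The same sum was 13251 ± 24.3 CPM in Itga5-High and 9877 ± 12.2 CPM in Itga5-Low cells. The 10 hypoxia members ran in another order, at 1608 ± 4.24 CPM with TGF-b1 and SB431542, 909 ± 8.44 CPM with TGF-b1, 1418 ± 12.6 CPM in HFD mock and 1340 ± 8.95 CPM in CD mock. On total counts they summed to 1767 to 1776 with the inhibitor, 828 to 847 with TGF-b1, 1356 to 1381 in HFD mock and 1360 to 1376 in CD mock, so HFD mock and CD mock overlapped there. They summed to 1679 ± 3.79 CPM in Itga5-High and 1463 ± 6.53 CPM in Itga5-Low cells. Such sums follow the most abundant genes and are not an order of every member. Epas1 averaged 614 CPM with the inhibitor and 71.8 CPM with TGF-b1, and Adm 271 and 29.7 CPM. In that comparison 6 of the 10 were higher, 1 was not called, and 3 were lower, namely Vegfa, Hif1a and Egln1. Set beside CD mock without a test, since the tables were scaled separately, Bnip3 was at 359 ± 4.17 CPM in Itga5-High, 305 ± 6.58 CPM in Itga5-Low and 34.7 ± 1.33 CPM in CD mock cells. Pdk1 was at 119 ± 2.73 CPM in Itga5-High, 111 ± 3.10 CPM in Itga5-Low and 23.5 ± 0.993 CPM in CD mock cells. Hif1a was at 213 ± 3.96 CPM in Itga5-High, 279 ± 4.24 CPM in Itga5-Low and 410 ± 3.53 CPM in CD mock cells. Sorting and adipogenic induction also set Itga5-High and Itga5-Low cells apart from CD mock, and their diet is not stated. The part of each in these gaps cannot be told apart.

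**Figure D4:**
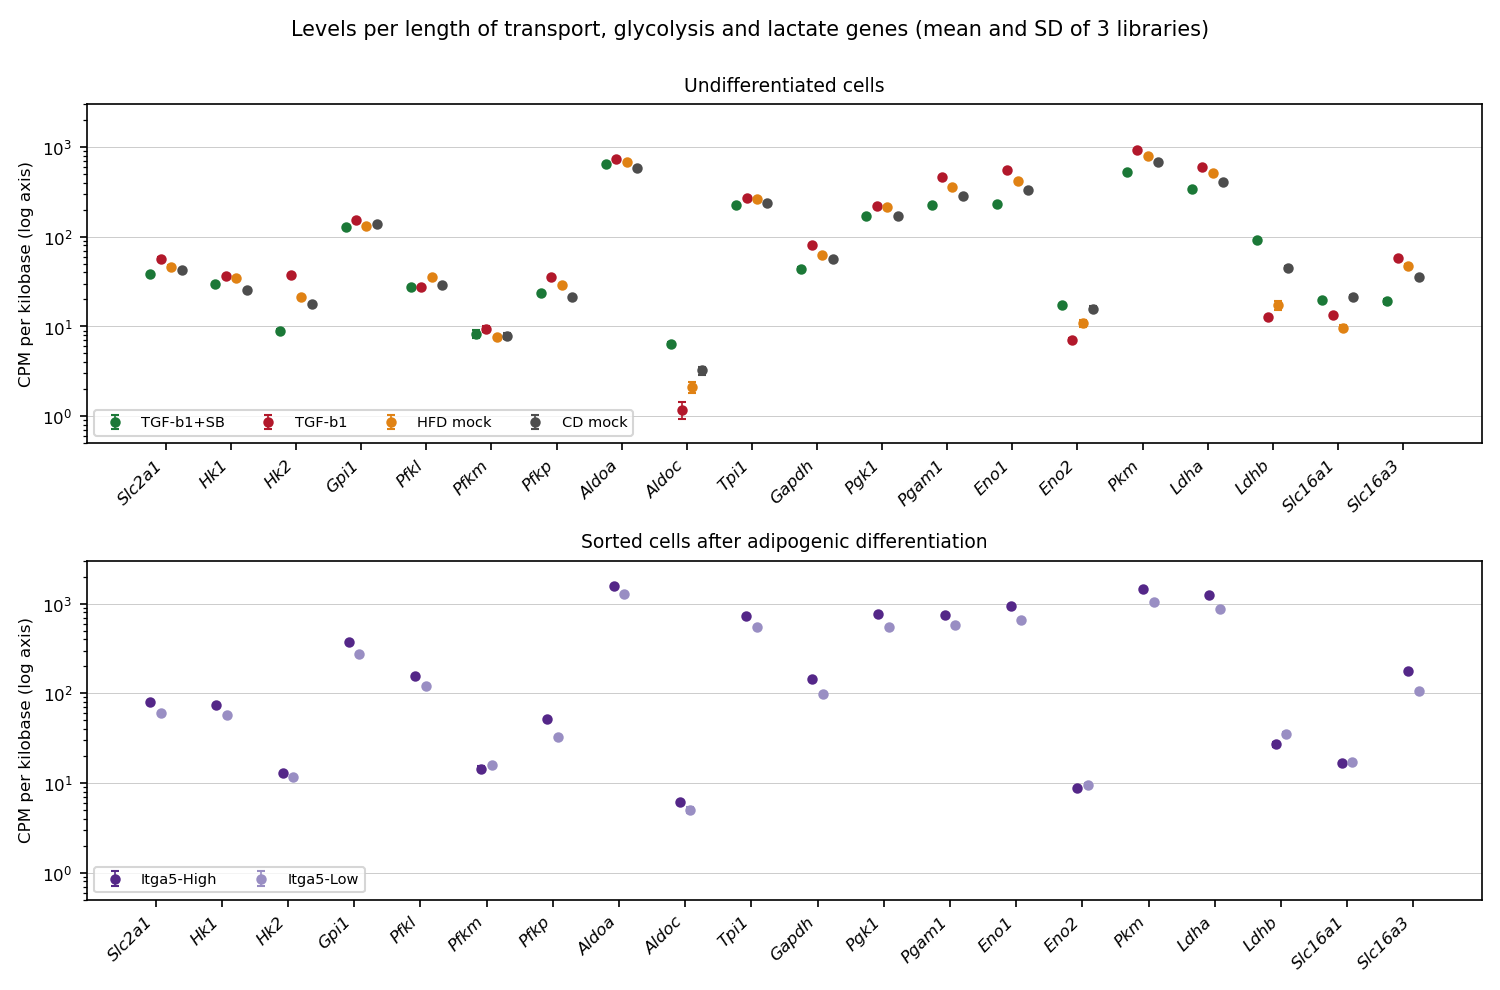
CPM per kilobase (log axis) of glucose entry, glycolysis and lactate genes in the order of the pathway, as mean and SD of 3 libraries, for undifferentiated (upper) and differentiated cells (lower). Pkm and Aldoa are the most abundant members in all groups, and Ldhb ranges from 12.8 with TGF-b1 to 90.9 with TGF-b1 and SB431542.

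Pkm makes 2 enzyme forms by using either of a pair of exons, and the M1 form is constitutively active whereas the M2 form can be regulated. Both exons are 167 bases long and were identical at 103 positions on build mm10, the M1 exon at chr9:59675029-59675195 and the M2 exon at chr9:59675568-59675734, on the plus strand. They are shown because reads over these bases tell the forms apart.
M1 exon: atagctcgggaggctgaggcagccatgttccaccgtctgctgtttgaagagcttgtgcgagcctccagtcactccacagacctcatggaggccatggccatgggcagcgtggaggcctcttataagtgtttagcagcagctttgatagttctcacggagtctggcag
M2 exon: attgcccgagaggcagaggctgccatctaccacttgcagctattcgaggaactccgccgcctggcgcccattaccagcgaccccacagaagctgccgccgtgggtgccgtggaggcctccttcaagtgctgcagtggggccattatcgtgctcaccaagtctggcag

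By counts, the M1 transcript made up 17.7 ± 0.875% of the M1 and M2 transcripts with TGF-b1 and SB431542, 15.7 ± 1.52% with TGF-b1, 22.4 ± 0.864% in HFD mock and 16.9 ± 0.989% in CD mock. HFD mock libraries, at 23.4%, 21.7% and 22.1%, lay above all CD mock libraries, at 17.1%, 17.8% and 15.8%. In differentiated cells the share was 35.7 ± 1.95% in Itga5-High and 34.9 ± 1.08% in Itga5-Low cells, which overlapped. These are 2 of 11 Pkm transcripts in the table, and how the authors divided reads among them is not given in the sources used here. For Hif1a, the transcript with the upstream start, chr12:73901324-73947531, took 48.2 ± 3.57% of the gene's counts in Itga5-High, 40.1 ± 0.410% in Itga5-Low and 27.4 ± 0.629% in CD mock cells. The Itga5-High libraries, at 52.3%, 46.3% and 45.9%, were all above the Itga5-Low libraries at 40.4%, 39.6% and 40.3%. These transcript shares are descriptions without a test.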

How the data were processed

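Messenger RNA of 18 libraries, 3 in each of 6 groups, was measured by sequencing. The authors deposited expected counts per transcript, values that need not be whole, in a table of 12 undifferentiated and one of 6 differentiated libraries. The submitters' processing notes name fastp, STAR, featureCounts and mm10, with no versions; the strand setting and the division of reads among transcripts are not stated there. The expected counts were summed per gene symbol and rounded, and each table was fitted on its own with edgeR 4.0.16 in R 4.3.3 (TMM scaling, filterByExpr, trended dispersion kept at 1e-04 or above, quasi-likelihood test, Benjamini-Hochberg adjustment over 14078 and 13468 genes). The procedure was tested on simulated data. Depth ran from 11154449 to 17288608 counts per library, so genes at a few CPM rest on few counts.

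Groups came from the labels. Deviations of same-numbered libraries were correlated at -0.055 to 0.023, so the numbers were not used as pairs. Alternatives were total counts, size factors, DESeq2 1.42.0, no filter on low counts, other dispersion floors, a replicate block, only the libraries compared, and each library left out. Members and lists were chosen with earlier results of these data known. Other pathway genes are named where they were among the 3 largest called changes of a direction and reached 5 CPM in the higher group. A gene that this rule named is not reported here. Promoters are from RefSeq and Pkm exons from GENCODE M21.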

Additional observations from a re-analysis of the deposited data

How the results depend on the processing

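Scaling by total counts changed most: of 165 tests of members, 148 gave a call, 21 of these calls were lost, 8 were gained, and 11 changes turned sign, of which Aldoa with SB431542 against TGF-b1 was called both ways. Members called lower then numbered 12 with TGF-b1 and SB431542 against TGF-b1, 9 against CD mock, and 7 in Itga5-High against Itga5-Low. The changes that turned sign were -0.11 log2 for Ankrd37 with TGF-b1; 0.25 for Pfkl, 0.06 for Pfkm, 0.05 for Aldoa, 0.04 for Pfkfb3, 0.01 for Hif1a and 0.21 for Ankrd37 with SB431542 against TGF-b1; and 0.05 for Pfkl, 0.01 for Tpi1, 0.00 for Slc16a1 and 0.10 for Ankrd37 against CD mock. The cause was not tested. Pgk1 against CD mock was -0.01 log2 with size factors and in DESeq2, and Bnip3 in HFD mock was 0.00 log2 with no filter on low counts.

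Leaving out 1 library gave 18 to 19 members higher and 12 lower with TGF-b1, with 8963 to 9218 genes called in all. With SB431542 against TGF-b1 it gave 11 higher, 19 to 20 lower and 10883 to 11089 genes, and against CD mock 12 to 13 higher, 13 to 15 lower and 7998 to 8197 genes. HFD mock gave 21 higher, 9 to 10 lower and 7041 to 7213 genes, and Itga5-High gave 23 to 24 higher, 4 to 5 lower and 6489 to 6791 genes. Changes that turned sign with 1 library left out ranged, for Ankrd37, from -0.11 to 0.28 log2 with TGF-b1, from -0.29 to 0.16 with SB431542 against TGF-b1, from -0.11 to 0.19 against CD mock and from -0.16 to 0.29 in Itga5-High. Pfkl ranged from -0.03 to 0.01 with SB431542 against TGF-b1, Pgk1 from -0.02 to 0.02 against CD mock, and in HFD mock Pfkm ranged from -0.10 to 0.01 and Bnip3 from -0.07 to 0.04. The replicate block changed the outcome of 0 of the 165 member tests. With this block 9480 genes were called with TGF-b1, 11206 with SB431542 against TGF-b1, 8558 with SB431542 against CD mock, 7544 in HFD mock and 7129 in Itga5-High. The 18 counts of Car9 over the TGF-b1 libraries limit the precision of its fold change.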

Other observations

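Other genes of these pathways, not among the 33, were counted by list in Itga5-High against Itga5-Low cells. A list of 15 pyruvate genes mixed Pdk4, which restrains pyruvate dehydrogenase, with its phosphatase Pdp1 and the carrier gene Slc16a7. Of these 15 genes, 12 were lower, 1 was higher and 2 were not called, with a median of -0.31 log2. Over all genes 53.6% were called, 27.1% higher and 26.5% lower. As the listed genes act in different directions, the count gives no direction for pyruvate use. Of 40 other hypoxia targets tested, 27 were higher, 6 lower and 7 not called, with a median of 0.23 log2. Of 25 genes of glucose and glycogen handling, 10 were higher, 5 lower and 10 not called, with a median of 0.11 log2.

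With TGF-b1 against CD mock, 20 of 41 other hypoxia targets tested rose, 19 fell and 2 were not called, with a median of 0.09 log2, where 33.5% of all genes rose and 34.3% fell. With TGF-b1 and SB431542 against CD mock, 5 of 12 other oxygen sensing genes were lower, 0 higher and 7 not called. The steps were small, with a median of -0.08 log2 and 0 genes lower by at least 0.5 log2. Of all genes, 30.7% were higher and 30.5% lower there. In HFD mock against CD mock, 3 of the 15 genes in the mixed pyruvate list rose, 7 fell and 5 were not called. Their median was -0.08 log2, where 27.2% of all genes rose and 26.8% fell.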
